A study of Mus musculus with 52 samples.

Results

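Frontal cortex of female mice that carried human APOE4 and ate a Western diet was compared with frontal cortex of female mice that had neither risk factor. The libraries were chosen by the genotype, diet and sex given in the labels: 7 females of genotype APP/E4 on the high-fat diet (HFD) and 7 females of genotype APP/E3 on normal diet (ND), 14 of the 52 libraries of the series. Every animal in the series, controls included, carried the APP/PS1ΔE9 transgenes, which lead to amyloid plaques. In APP/E4 animals both copies of mouse Apoe were replaced by human APOE4 (targeted replacement, APOE4 +/+), and in APP/E3 animals by human APOE3 (APOE3 +/+). Fat, as anhydrous milk fat and corn oil, supplied 40% of the calories of the HFD. Mice were on average 3.5 months old when the diets began and ate them for 3 months, and they averaged 14.7 months of age at behavioural testing. The sources used here do not say how these ages fit together, nor give the age of single animals. The 7 APP/E4 ND and 8 APP/E3 HFD females hold 1 factor each, and 5 APP/E4 HFD and 6 APP/E3 ND males form the same pair of groups in the other sex. The genotype and the diet differ together between the 7 and 7 females, so in that comparison alone their shares cannot be told apart.

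Apolipoprotein E is the main lipid carrier of the brain, secreted largely by astrocytes and, near plaques, by microglia, and the APOE4 allele is the strongest common genetic risk factor for late-onset Alzheimer's disease. Microglia in contact with amyloid plaques lower their resting genes and switch on lysosomal, lipid-handling and phagocytic genes, a change that needs the receptor TREM2 and its adaptor TYROBP. Diets rich in fat raise circulating lipids and can provoke inflammation, and both sex and APOE genotype are known to modify Alzheimer's disease risk.

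The 14 libraries held between 7.09 M and 12.2 M gene counts, with medians of 8.05 M in APP/E4 HFD and 8.40 M in APP/E3 ND females. At this depth 3 counts correspond to 0.246 to 0.423 CPM (gene counts divided by the library total in M) in 1 library. These floors and the Csl values below use plain library totals, and the other CPM values are scaled by TMM factors. Cortical neuron genes were present in all 14 libraries: the summed level of 16 excitatory and cortical layer markers was between 4683 and 9635 CPM in APP/E4 HFD and between 6439 and 9167 CPM in APP/E3 ND females. Some libraries also held RNA of neighbouring tissue. Summed striatal markers spanned 271 to 2957 CPM in APP/E4 HFD and 275 to 3366 CPM in APP/E3 ND females, APP/E4 HFD female 4 reached 123 CPM of Omp, a marker of olfactory neurons, and APP/E4 HFD female 5 reached 1342 CPM of choroid plexus markers. APP/E3 ND females 1 and 4 were high in ribosomal Rn18s. Csl, a gene related to citrate synthase, split the libraries, with 0.0944 to 1.13 CPM in 4 and 13.6 to 18.1 CPM in the other 10, and the low ones were 2 of 7 in each group. Among the other females, APP/E3 HFD females 1, 2, 3, 7 and 8 and APP/E4 ND females 6 and 7 were low in Csl. Xist, which silences an X chromosome in females, was at 479 CPM or more in every female and at 1.86 CPM or less in every male. The counts do not check the APOE genotypes, because human APOE is not a row of this mouse gene table: Apoe had a median of 21.5 CPM in APP/E4 HFD and 20.9 CPM in APP/E3 ND females. App and Prnp, whose mouse rows may also take reads of the transgenes, likewise did not pass the test, with log2 differences of -0.10 ± 0.08 and -0.06 ± 0.10 (SE).

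With both risk factors the cortex showed higher levels of microglial genes and of the acute-phase serine protease inhibitor Serpina3n, and lower levels of a mixed set of genes. A gene was called at a Benjamini-Hochberg adjusted p under 0.05 in edgeR's quasi-likelihood test, fitted to all 52 libraries with 1 mean per group. Of 15195 genes tested, 154 (1.01%) were called, 77 higher (0.507%) and 77 lower (0.507%) in APP/E4 HFD than in APP/E3 ND females. The typical called gene changed little (the median size of the log2 difference was 0.50), and 35 called genes differed by more than 1 on the log2 scale. Among all genes tested, 49 (0.322%) had all 7 APP/E4 HFD values above all 7 APP/E3 ND values and 35 (0.23%) had them all below. Of the called genes, 26 higher and 21 lower ones were separated in this way. Over all tested genes 49.9% were higher and the median log2 difference was -0.0004, so the lists described here are read against a median near 0. The fit leaned on single animals: 51 of the 154 genes were called in each of the 14 fits that left out 1 library, and the count ranged from 88 without APP/E4 HFD female 4 to 283 without APP/E3 ND female 4.

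**Figure D1:**
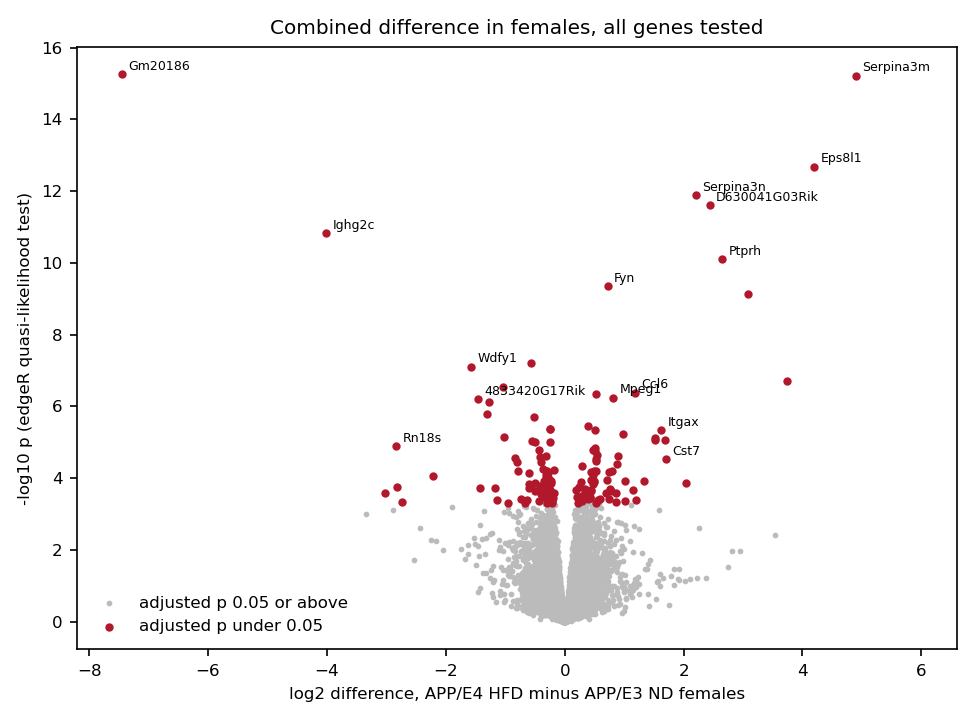
Each point is 1 of the 15195 genes tested. The horizontal axis is the log2 difference, APP/E4 HFD minus APP/E3 ND females, and the vertical axis is -log10 of the unadjusted p of edgeR's quasi-likelihood test. The 154 called genes are red, with Serpina3m, Eps8l1 and Serpina3n far to the upper right and Gm20186 and Ighg2c far to the upper left.

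Plaque-associated microglia genes were the list with the most calls. Of 29 genes taken from the known plaque-contact state, 27 were tested and 24 were higher in APP/E4 HFD than in APP/E3 ND females. Of the 27, 7 (25.9%) rose while none fell, and the median log2 difference was 0.39. The summed level of the list overlapped, at 2523 to 3192 CPM in APP/E4 HFD and 2339 to 2940 CPM in APP/E3 ND females. The medians of the sum were 2812 and 2634 CPM. The 7 were Ccl6, Mpeg1, Ctsd, Itgax, Clec7a, Cst7 and Lgals3bp. Their promoters, from 250 bases before to 50 bases after the RefSeq start, were searched on both strands for 3 motifs of myeloid and lysosomal genes: GAGGAA, the core bound by the myeloid factor PU.1, TGANTCA, bound by AP-1, and CACGTG, the E-box bound by lysosome regulators such as TFEB. Of the 27025 promoters RefSeq gives for this build, 28.3% held GAGGAA, 7.93% TGANTCA and 7.24% CACGTG. Among the 7, Clec7a and Lgals3bp held GAGGAA, Itgax and Cst7 TGANTCA, and Ctsd CACGTG, and Ccl6 and Mpeg1 held none of these letters. The promoters of Ccl6, Mpeg1, Itgax, Cst7, Clec7a and Ctsd are printed because these members were called in each of the 14 fits that left out 1 library, and capitals mark the motif letters. They were read from RefSeq on GRCm38.p6: Ccl6 at chr11:83593038-83593337 on the minus strand, Mpeg1 at chr19:12460520-12460819 on the plus strand, Itgax at chr7:128129300-128129599 on the plus strand, Cst7 at chr2:150570165-150570464 on the plus strand, Clec7a at chr6:129472730-129473029 on the minus strand and Ctsd at chr7:142387778-142388077 on the minus strand.
Ccl6: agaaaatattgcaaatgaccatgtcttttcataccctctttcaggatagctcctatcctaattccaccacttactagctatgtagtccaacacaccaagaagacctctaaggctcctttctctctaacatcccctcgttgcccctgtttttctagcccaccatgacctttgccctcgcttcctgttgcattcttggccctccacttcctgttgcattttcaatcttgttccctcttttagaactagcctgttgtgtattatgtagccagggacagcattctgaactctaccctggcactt
Mpeg1: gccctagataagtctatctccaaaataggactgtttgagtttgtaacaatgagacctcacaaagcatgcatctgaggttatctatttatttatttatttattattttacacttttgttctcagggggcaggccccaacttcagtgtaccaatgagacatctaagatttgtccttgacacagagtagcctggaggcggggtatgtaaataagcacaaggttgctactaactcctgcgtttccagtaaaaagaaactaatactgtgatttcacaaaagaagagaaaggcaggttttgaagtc
Itgax: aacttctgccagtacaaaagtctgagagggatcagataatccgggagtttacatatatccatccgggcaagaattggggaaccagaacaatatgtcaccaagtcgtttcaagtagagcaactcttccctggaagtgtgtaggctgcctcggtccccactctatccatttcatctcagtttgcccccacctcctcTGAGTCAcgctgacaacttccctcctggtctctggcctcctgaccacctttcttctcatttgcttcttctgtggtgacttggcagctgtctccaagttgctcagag
Cst7: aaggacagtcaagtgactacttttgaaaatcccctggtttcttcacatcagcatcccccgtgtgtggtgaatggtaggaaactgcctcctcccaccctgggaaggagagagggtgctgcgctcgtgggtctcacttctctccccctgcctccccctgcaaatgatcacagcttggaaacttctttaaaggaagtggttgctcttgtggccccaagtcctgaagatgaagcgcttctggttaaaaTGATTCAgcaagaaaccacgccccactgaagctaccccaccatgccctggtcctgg
Clec7a: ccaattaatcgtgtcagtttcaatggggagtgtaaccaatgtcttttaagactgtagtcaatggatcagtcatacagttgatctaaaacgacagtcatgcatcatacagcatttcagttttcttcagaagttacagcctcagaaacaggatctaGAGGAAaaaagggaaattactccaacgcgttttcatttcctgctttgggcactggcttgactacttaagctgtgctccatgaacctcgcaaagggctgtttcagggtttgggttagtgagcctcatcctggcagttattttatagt
Ctsd: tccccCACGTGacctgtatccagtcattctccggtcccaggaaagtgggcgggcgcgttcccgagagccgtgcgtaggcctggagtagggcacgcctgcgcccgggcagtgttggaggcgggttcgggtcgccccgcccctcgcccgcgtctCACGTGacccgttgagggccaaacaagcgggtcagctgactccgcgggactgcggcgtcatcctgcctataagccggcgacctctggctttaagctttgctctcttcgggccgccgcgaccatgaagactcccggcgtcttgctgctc
The Ctsd promoter holds its E-box at both marked places, and a match is only a match of letters.

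Cst7, which encodes cystatin F, an inhibitor of lysosomal cysteine proteases, was lowest at 3.40, in the middle at 8.72 and highest at 13.7 CPM in APP/E4 HFD females, against 0.477, 3.38 and 4.43 CPM in APP/E3 ND females. Only the lowest of the 7 APP/E4 HFD libraries lay within the APP/E3 ND range, and the log2 difference was 1.71 ± 0.37 (SE, edgeR adjusted p 0.0102). Itgax, the integrin subunit CD11c, had a lowest, median and highest value of 2.14, 3.70 and 5.17 CPM in APP/E4 HFD and of 0.729, 1.24 and 1.71 CPM in APP/E3 ND females. Its groups did not overlap (log2 difference 1.62 ± 0.32, edgeR adjusted p 0.00283). Clec7a, the beta-glucan receptor dectin-1, was at 2.52, 5.38 and 7.14 CPM in APP/E4 HFD and at 1.19, 1.30 and 2.85 CPM in APP/E3 ND females, with the groups touching at their edges (log2 1.52 ± 0.31, edgeR adjusted p 0.00443). Ccl6, a chemokine of myeloid cells, was at 3.65, 5.25 and 7.65 CPM in APP/E4 HFD, against 1.46, 2.25 and 3.84 CPM in APP/E3 ND females, a log2 difference of 1.18 ± 0.20 (edgeR adjusted p 0.000445). Without the female libraries low in Csl, which left 5 animals in each of the 2 groups, the edgeR adjusted p was 0.0725 for Cst7, 0.0663 for Itgax and 0.0577 for Clec7a.

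Mpeg1, a pore-forming protein of macrophage phagosomes, had a lowest, median and highest value of 77.4, 109 and 119.5 CPM in APP/E4 HFD and of 42.5, 55.1 and 79.9 CPM in APP/E3 ND females. The groups overlapped only at their edges, and the log2 difference was 0.82 ± 0.14 (edgeR adjusted p 0.000539). Ctsd, the lysosomal protease cathepsin D, had the smallest change of the 7 and yet separated the groups fully, with 355, 397 and 499.7 CPM in APP/E4 HFD and 277, 319 and 343 CPM in APP/E3 ND females (log2 0.39 ± 0.07, edgeR adjusted p 0.00249). Lgals3bp, a secreted galectin-binding glycoprotein, overlapped more, with 26.9, 49.3 and 76.8 CPM in APP/E4 HFD and 21.3, 27.5 and 45.9 CPM in APP/E3 ND females (log2 0.78 ± 0.19, edgeR adjusted p 0.0326). Its call was lost in 8 of the 14 fits that left out 1 library. With the 14 libraries alone the calls of Ctsd, Cst7 and Lgals3bp were lost (edgeR adjusted p 0.0675, 0.0863 and 0.175). Members that did not pass included Cd68, a lysosomal membrane protein, with a log2 difference of 0.49 ± 0.13, and Spp1, Gpnmb and Lpl, which are among the usual plaque-contact genes, with 0.35 ± 0.35, -0.13 ± 0.33 and 0.08 ± 0.17.

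**Figure D2:**
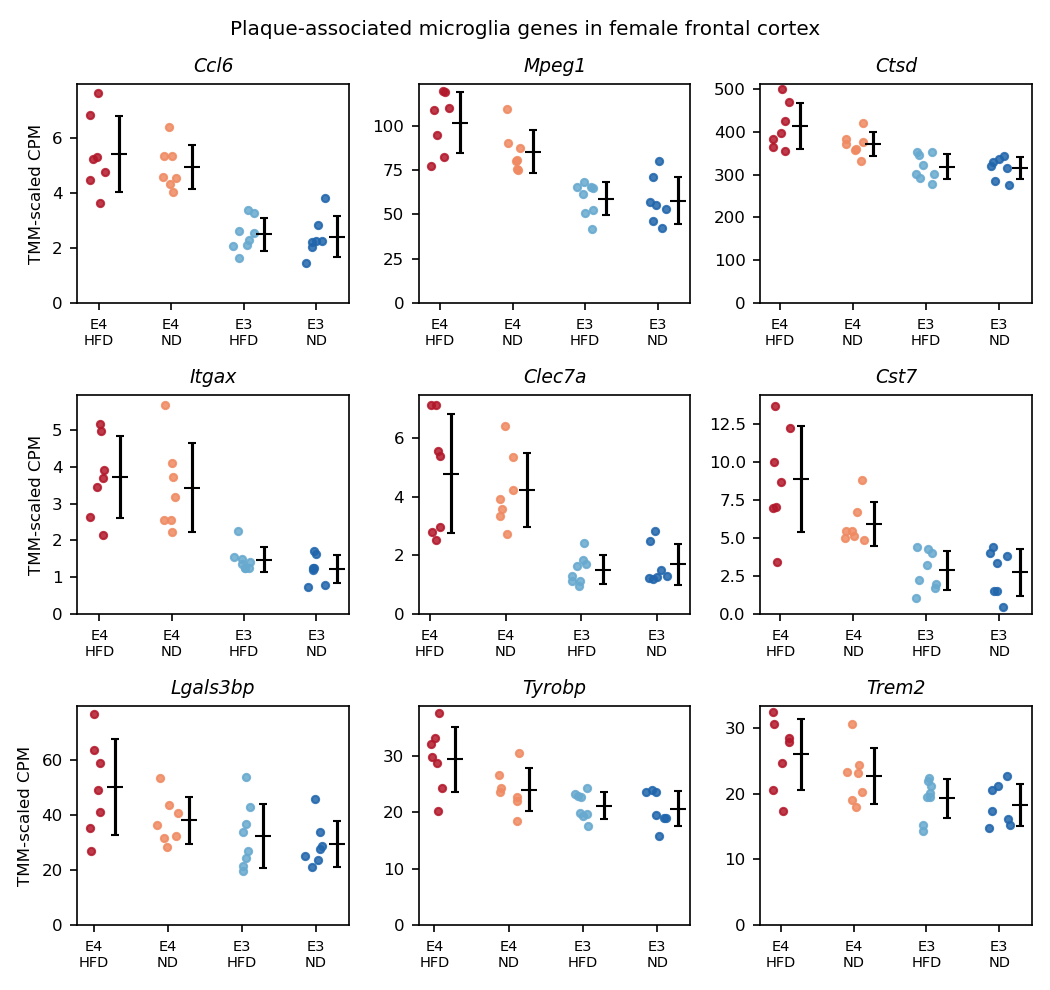
Each panel shows 1 gene in the 29 female libraries, as TMM-scaled CPM on a linear axis from 0. Points are libraries, and bars give the mean and SD of 7 APP/E4 HFD, 7 APP/E4 ND, 8 APP/E3 HFD and 7 APP/E3 ND females. Itgax and Ctsd separate APP/E4 HFD from APP/E3 ND fully, whereas Tyrobp and Trem2 overlap.

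Resting microglia genes were higher as well. All 20 homeostatic markers, which mark surveying microglia, were higher in APP/E4 HFD females, 3 of them (15%) rose, and the median log2 difference was 0.31. Their summed level was between 929 and 1145 CPM in APP/E4 HFD and between 724 and 1035 CPM in APP/E3 ND females, a partial overlap. Fcrls, an Fc receptor-like scavenger receptor of microglia, was lowest at 40.4, in the middle at 47.8 and highest at 54.4 CPM in APP/E4 HFD, against 26.8, 32.4 and 41.0 CPM in APP/E3 ND females. It rose by 0.50 ± 0.11 on the log2 scale (edgeR adjusted p 0.00717), and its groups overlapped by a narrow margin. Without the Csl-low females the Fcrls call was lost (edgeR adjusted p 0.0726). Gpr34, a lysophospholipid receptor, rose by 0.45 ± 0.11 (edgeR adjusted p 0.0322). P2ry12, Tmem119 and Cx3cr1, 3 classical resting markers, gave 0.31 ± 0.09, 0.13 ± 0.10 and 0.22 ± 0.11 and did not pass. In bulk tissue more microglia and more of these RNAs in each microglial cell cannot be told apart. The call of Gpr34 was lost in 7 of the 14 fits that left out 1 library.

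The TREM2 receptor and its signalling chain did not pass the test. Of 13 genes of the chain, from Trem2 and Tyrobp to the kinase Syk and the phospholipase Plcg2, 12 were higher and none was called, with a median log2 difference of 0.38. Tyrobp, the membrane adaptor that passes on the TREM2 signal, had a lowest, median and highest value of 20.1, 29.9 and 37.6 CPM in APP/E4 HFD and of 15.7, 19.5 and 23.9 CPM in APP/E3 ND females. The groups overlapped, and the log2 difference was 0.52 ± 0.14 (edgeR adjusted p 0.0537). Trem2 was at 17.4, 27.96 and 32.4 CPM in APP/E4 HFD and at 14.8, 17.4 and 22.8 CPM in APP/E3 ND females, with a log2 difference of 0.51 ± 0.14 (edgeR adjusted p 0.0582). Both missed the threshold narrowly, which does not show that they did not differ. Syk gave 0.38 ± 0.14 and Plcg2 0.43 ± 0.13.

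Receptors and adhesion molecules of phagocytes gave 3 calls. Of 18 genes for Fc receptors, the NADPH oxidase, integrins and related receptors, 17 were higher, 3 (16.7%) rose, and the median log2 difference was 0.46, the highest of the immune lists. Fcgr2b, the inhibitory Fc gamma receptor, had a lowest, median and highest value of 4.78, 7.27 and 10.6 CPM in APP/E4 HFD and of 2.40, 4.01 and 5.13 CPM in APP/E3 ND females. The ranges met only at their ends, and the gene rose by 0.90 ± 0.19 on the log2 scale (edgeR adjusted p 0.00915). Tlr7, an endosomal sensor of single-stranded RNA, rose by 0.70 ± 0.18 (edgeR adjusted p 0.0352), and Itgb2, the beta chain of the leukocyte integrins, by 0.53 ± 0.14 (edgeR adjusted p 0.0486). Both of these calls were lost in 10 of the 14 fits that left out 1 library.

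Among 18 complement genes 13 were higher and 2 (11.1%) rose, with a median log2 difference of 0.18; the 2 were Itgax, a chain of complement receptor 4, and C3ar1, the receptor of the C3a fragment. C3ar1 rose by 0.60 ± 0.16 (edgeR adjusted p 0.0440), and its call was lost in 10 of the 14 fits that left out 1 library. C1qa, C3 and C4b, which start or carry the cascade, gave 0.16 ± 0.12, 0.30 ± 0.47 and 0.20 ± 0.20 and did not pass. Of 38 interferon response genes 36 were higher and 2 (5.26%) rose, with 0.38 as the median log2 difference. Ifi27l2a, an interferon-induced protein, had a lowest, median and highest value of 1.59, 2.42 and 5.92 CPM in APP/E4 HFD and of 0.427, 1.15 and 1.63 CPM in APP/E3 ND females. The groups overlapped at the edge only, and it rose by 1.68 ± 0.34 on the log2 scale (edgeR adjusted p 0.00443). Trim30a, an interferon-induced regulator of inflammasome signalling, rose by 0.74 ± 0.20 (edgeR adjusted p 0.0441) with no overlap, at 4.78 CPM or more in APP/E4 HFD and 4.69 CPM or less in APP/E3 ND females, though its call was lost in 9 of the 14 fits that left out 1 library.

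Antigen presentation gave 2 calls among 18 genes (11.1%), both higher, and a median log2 difference of 0.11. B2m, the light chain of MHC class I, was lowest at 125, in the middle at 137 and highest at 205 CPM in APP/E4 HFD, against 83.4, 103 and 134.5 CPM in APP/E3 ND females. It rose by 0.53 ± 0.12 on the log2 scale (edgeR adjusted p 0.0113). Ctss, the protease cathepsin S that trims the invariant chain in antigen-presenting cells, rose by 0.54 ± 0.11 (edgeR adjusted p 0.00868), with partly overlapping ranges of 106 to 174 CPM in APP/E4 HFD and 71.7 to 117 CPM in APP/E3 ND females. The Ctss call was lost without the Csl-low females (edgeR adjusted p 0.0509), and both calls were lost with the 14 libraries alone (edgeR adjusted p 0.112 for Ctss and 0.133 for B2m). The MHC class I heavy chain genes H2-K1 and H2-D1 gave 0.13 ± 0.17 and 0.24 ± 0.14, and the class II invariant chain Cd74 gave 0.02 ± 0.34; none passed.

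Serpina3n, an acute-phase inhibitor of serine proteases that reactive astrocytes make, rose, with the APP/E4 HFD libraries all above the APP/E3 ND ones. Its lowest, median and highest values were 62.9, 102 and 152 CPM in APP/E4 HFD and 10.8, 18.4 and 37.2 CPM in APP/E3 ND females. The groups were far apart, and the log2 difference was 2.21 ± 0.23, a 4.63-fold higher level (edgeR adjusted p 4.98e-09). Serpina3m, a close relative in the same gene cluster, was at 2.96 to 7.18 CPM in every APP/E4 HFD female, while all 7 APP/E3 ND libraries held 9 counts together, between 0 and 0.405 CPM (log2 4.90 ± 0.41, edgeR adjusted p 4.59e-12). Members of this family are near-identical in sequence, and the sources used here do not say how shared reads were counted, so the split between them is uncertain. The rest of the reactive astrocyte list did not follow: of 19 genes tested 11 were higher, Serpina3n was the sole call (5.26%), the median log2 difference was 0.03, and Gfap, the intermediate filament of reactive astrocytes, gave -0.10 ± 0.20. Astrocyte identity genes gave no call among 20, with 17 higher and a median of 0.06, and the smallest p belonged to the glutamate transporter Slc1a3 (log2 0.26 ± 0.09, edgeR adjusted p 0.174).

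Other large increases fell on genes that belong to none of the lists. Eps8l1, which links receptor tyrosine kinases to the actin cytoskeleton, was lowest at 4.30, in the middle at 5.54 and highest at 11.5 CPM in APP/E4 HFD, against 0, 0.405 and 0.572 CPM in APP/E3 ND females. The groups were separate, and the gene rose by 4.20 ± 0.42 on the log2 scale (edgeR adjusted p 1.05e-09). Ptprh, a receptor-type tyrosine phosphatase, rose by 2.65 ± 0.32 (edgeR adjusted p 1.71e-07) and the noncoding D630041G03Rik by 2.44 ± 0.26 (edgeR adjusted p 7.34e-09), also with no overlap. In APP/E4 ND against APP/E3 ND females the log2 differences of Eps8l1, Ptprh and D630041G03Rik were 3.83, 2.61 and 2.15. All 3 genes lie on chromosome 7, as do Apoe, Itgax, Ctsd, Trim30a and Tyrobp. Distances between these genes along the chromosome were not compared. Chromosome 7 held 22 of the 154 called genes, 12 of them higher, which was 1.92% of its 1143 genes tested. That count was the largest on any chromosome. Chromosome 12, with Serpina3n, Serpina3m, Ighg2c and Ifi27l2a, held 13 (2.35%), 6 of them higher. Col28a1, a collagen chain, was called at 2.03 ± 0.49 (edgeR adjusted p 0.0248), but APP/E4 HFD female 4 alone stood at 11.1 CPM while the other 6 lay between 0.807 and 3.15 CPM and APP/E3 ND females between 0.277 and 1.71 CPM. Without that library the Col28a1 call was lost, as it was without APP/E3 ND female 1, 2 or 5 (highest adjusted p 0.240).

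Fyn, a Src-family kinase of neurons and oligodendrocytes that acts in amyloid and tau signalling, was the only call among 30 cell migration genes (3.33%), of which 22 were higher with a median log2 difference of 0.08. Its lowest, median and highest values were 119, 126 and 179.6 CPM in APP/E4 HFD and 69.3, 76.3 and 110.1 CPM in APP/E3 ND females. The groups did not overlap, and Fyn rose by 0.72 ± 0.09 on the log2 scale (edgeR adjusted p 8.21e-07). Transcription and chromatin regulators were higher in 29 of 30 cases by small amounts, with a median of 0.18 and 3 calls (10%). Med13l, a subunit of the Mediator kinase module, rose by 0.28 ± 0.07 (edgeR adjusted p 0.0244) without overlap. Kmt2a, a histone methyltransferase, rose by 0.47 ± 0.12 (edgeR adjusted p 0.0264) and Btaf1, a remodeller of TBP on DNA, by 0.34 ± 0.09 (edgeR adjusted p 0.0357), both with overlap. No member of this list was called without APP/E3 ND female 1, APP/E3 ND female 7 or APP/E4 HFD female 6, or without the libraries low in Csl.

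Gm20186 and Ighg2c were near absence in the APP/E4 HFD females, and in the APP/E4 ND females too, at means of 0.0378 and 0.112 CPM. Gm20186, a predicted gene, had no counts in the 7 APP/E4 HFD libraries, and its lowest, median and highest values in APP/E3 ND females were 1.79, 2.14 and 2.52 CPM. Set against a floor of 3 counts over the whole APP/E4 HFD group, 0.0495 CPM, it was at least 44.7-fold lower. Ighg2c, an immunoglobulin gamma constant region, was between 0 and 0.630 CPM in APP/E4 HFD and between 3.27 and 5.58 CPM in APP/E3 ND females, and it fell by 4.01 on the log2 scale (SE 0.46, edgeR adjusted p 3.7e-08). Immunoglobulin constant genes resemble each other closely, so its reads may belong in part to a relative. 4833420G17Rik, of unknown function, was separate too, at 5.87, 7.26 and 17.8 CPM in APP/E4 HFD and 24.2, 28.4 and 29.5 CPM in APP/E3 ND females (log2 -1.46 ± 0.25, edgeR adjusted p 0.000559).

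Wdfy1, an endosomal adaptor of Toll-like receptor signalling, was narrow in APP/E4 HFD females, at 13.3, 14.8 and 18.6 CPM, and wide in APP/E3 ND females, at 13.3, 40.0 and 68.0 CPM. Of these, only APP/E3 ND female 4 was as low as the APP/E4 HFD libraries, and the other 6 were at 33.5 CPM or more (log2 -1.58 ± 0.25, edgeR adjusted p 0.000108). Over all 52 libraries the 25 APP/E4 animals lay between 12.96 and 19.6 CPM, and of the 27 APP/E3 animals 1 ND female, 1 HFD male and 3 ND males lay at or under 19.6 CPM. Jun, an immediate early transcription factor, fell by 0.78 on the log2 scale (SE 0.18, edgeR adjusted p 0.0169), with 35.5, 47.5 and 58.4 CPM in APP/E4 HFD and 42.9, 68.1 and 124.9 CPM in APP/E3 ND females, which overlapped. It was the sole call among 25 immediate early genes (4.00%), of which 13 were higher, and its call was lost without APP/E3 ND female 3 or 7.

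Several of the largest decreases were called only while certain libraries were kept. Rn18s, the 18S ribosomal RNA, was lowest at 614 CPM with a median of 1005 CPM in APP/E4 HFD females, whereas APP/E3 ND females 1 and 4 reached 45970 and 9181 CPM and the other 5 APP/E3 ND females lay between 864 and 1928 CPM. The noncoding RNAs Rpph1, of RNase P, and Rn7sk, of the 7SK particle, were likewise highest in APP/E3 ND female 1, at 21.2 and 82.7 CPM, against at most 0.630 and 6.27 CPM in APP/E4 HFD females. All 3 were called (log2 -2.83, -2.81 and -2.22), none was called without that library, and without APP/E3 ND females 1 and 4 together all 3 differences turned positive, at 0.004, 0.22 and 0.22. Nptxr, a neuronal pentraxin receptor, Rtl1, an imprinted retrotransposon-derived gene, and Wnt9b, a Wnt ligand, were each highest in APP/E3 ND female 3, and leaving that library out ended all 3 calls. These calls were lost without other libraries of both groups too, in 11, 6 and 7 of the 14 fits that left out 1 library for Nptxr, Rtl1 and Wnt9b. Rpph1 was also lost without APP/E4 HFD female 1, 3 or 4. Summed mural and meningeal markers spanned 456 to 1561 CPM in APP/E4 HFD females and were between 1530 and 1917 CPM in APP/E3 ND females 3, 6 and 7, the 3 of that group highest in Wnt9b, and at most 973 CPM in its other 4 libraries. The part of these markers in the results was not tested.

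Lipid genes gave few calls. Of 23 cholesterol synthesis genes 22 were lower in APP/E4 HFD females, with a median log2 difference of -0.16, and 1 (4.35%) was called. Sqle, squalene epoxidase, a rate-controlling step of the pathway, had a lowest, median and highest value of 65.1, 73.8 and 87.5 CPM in APP/E4 HFD and of 82.5, 92.2 and 121 CPM in APP/E3 ND females. The groups overlapped at the edge, Sqle fell by 0.36 on the log2 scale (SE 0.09, edgeR adjusted p 0.0411), and its call was lost in 11 of the 14 fits that left out 1 library. Among 22 lipoprotein and sterol genes 15 were higher and Cyp46a1, the neuronal enzyme that clears brain cholesterol, was the only call (4.55%): it fell by 0.30 (SE 0.07, edgeR adjusted p 0.0169), with libraries between 151 and 224 CPM in APP/E4 HFD and between 218 and 288 CPM in APP/E3 ND females, and its call was lost without APP/E3 ND female 3 or APP/E4 HFD female 4. The exporter Abca1 gave 0.54 ± 0.18 and did not pass. Fatty acid oxidation genes gave no call among 23, with 13 higher, and the smallest p belonged to the pyruvate dehydrogenase kinase Pdk2 (log2 -0.23 ± 0.07, edgeR adjusted p 0.0623).

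Lists of other cell types and of general function gave no call, and the member with the smallest p is given for each. Myelin genes were higher in 19 of 21 cases (median log2 difference 0.19) and oligodendrocyte precursor genes in 11 of 14 (0.17), with the smallest p at Car2, a carbonic anhydrase (0.20 ± 0.10, edgeR adjusted p 0.368), and Ptprz1, a receptor phosphatase (0.30 ± 0.12, edgeR adjusted p 0.226). Excitatory neuron genes were split 8 against 8 (-0.02), led by the vesicular glutamate transporter Slc17a7 (-0.20 ± 0.11, edgeR adjusted p 0.413), and inhibitory neuron genes 6 higher against 9 lower (-0.03), led by the neuropeptide Sst (-0.29 ± 0.11, edgeR adjusted p 0.214). Endothelial genes were higher in 15 of 19 cases (0.12), led by the monocarboxylate transporter Slc16a1 (0.27 ± 0.08, edgeR adjusted p 0.0986). Of 32 oxidative phosphorylation genes 24 were lower (-0.05), led by Atp5d, an ATP synthase subunit (-0.27 ± 0.09, edgeR adjusted p 0.112), and of 26 chaperones 22 were higher (0.07), led by Hsp90b1 of the endoplasmic reticulum (0.19 ± 0.06, edgeR adjusted p 0.138). Glucocorticoid response genes were split 9 against 9 (0.01), led by the cell cycle inhibitor Cdkn1a (0.52 ± 0.25, edgeR adjusted p 0.327). Of 27 genes near human Alzheimer's disease risk loci 20 were higher (0.12), led by the metalloprotease Adamts1 (0.48 ± 0.13, edgeR adjusted p 0.0510).

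Markers of tissue around the cortex differed by larger medians, again with no call, and with wide spread between animals. All 12 choroid plexus genes were higher in APP/E4 HFD females, with a median log2 difference of 1.18, and their sum was between 291 and 1342 CPM in APP/E4 HFD and between 204 and 456 CPM in APP/E3 ND females. Ttr, the transthyretin carrier that defines this tissue, was at 2.68, 76.9 and 651 CPM in APP/E4 HFD and at 1.79, 12.6 and 33.7 CPM in APP/E3 ND females (log2 3.54 ± 1.16, edgeR adjusted p 0.131). All 12 olfactory bulb genes were higher as well (median 0.71), and the sign of Omp, the marker of olfactory neurons, rested on APP/E4 HFD female 4: 2.37 ± 1.23 with it and -0.90 without it. All 15 striatal genes were lower (median -0.50), led by the neuropeptide gene Tac1 (-0.72 ± 0.56, edgeR adjusted p 0.604). Mural and meningeal genes were lower in 14 of 20 cases (median -0.30), led by the collagen Col1a1 (-1.10 ± 0.41, edgeR adjusted p 0.190), and 5 of 8 blood genes were lower (median -1.37), led by haemoglobin Hba-a1 (-2.89 ± 0.80, edgeR adjusted p 0.0600), which stood at 135 CPM in APP/E3 ND female 5. The part of this neighbouring tissue in the genes called was not tested. Leaving out APP/E4 HFD females 4 and 5, the highest in olfactory and choroid plexus genes, left 63 genes called, and leaving out APP/E3 ND females 1 and 4 left 225.

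**Figure D3:**
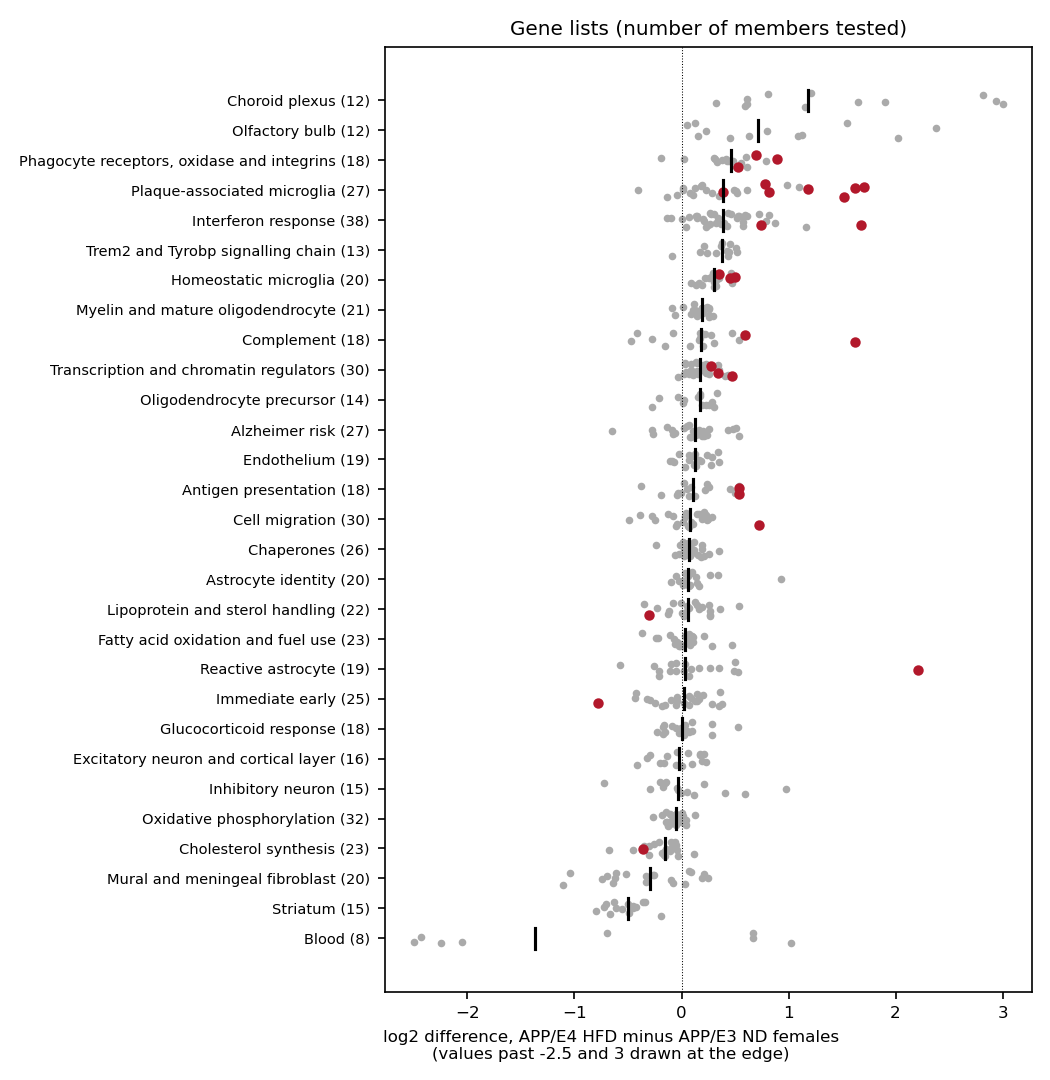
Each row is a gene list with the number of members tested, and each dot is 1 member's log2 difference, APP/E4 HFD minus APP/E3 ND females, on a linear axis. Red dots passed the edgeR test, black bars are the list medians, and values past the axis limits are drawn at the edge. The 7 red dots of the plaque-associated microglia list lie to the right, and the choroid plexus and olfactory bulb lists lie to the right with no red dot.

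The other females show each factor alone, in comparisons that share their libraries with the combined one and with each other. APP/E3 HFD held more Csl-low libraries than the other female groups, so comparisons that use it are not balanced for Csl. APP/E4 against APP/E3 gave 92 called genes on HFD (0.605%), 56 higher (0.369%) and 36 lower (0.237%), and 146 on ND (0.961%), 66 higher (0.434%) and 80 lower (0.526%). HFD against ND gave 0 called genes in APP/E4 females (0%, edgeR), with 1201 genes at an unadjusted p under 0.05, a smallest adjusted p of 0.166, and 0 calls by DESeq2 and by limma voom. In APP/E3 females 4 genes were called for the diet, all lower on HFD (0.0263%), none was higher (0%), and 713 genes had an unadjusted p under 0.05. The 4, named after their values were seen, were Rn18s and the haemoglobin genes Hba-a1, Hbb-bs and Hbb-b1, with Rn18s highest in APP/E3 ND female 1 and the haemoglobin genes in APP/E3 ND female 5. None was called with limma voom and none without APP/E3 ND female 1, while DESeq2 gave 8 calls. The count on ND moved to 492 without APP/E3 ND female 4 and to 49 without APP/E3 ND female 3.

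Serpina3n was already high with APOE4 alone, at 108 ± 31.0 CPM in APP/E4 HFD, 113 ± 24.9 CPM in APP/E4 ND, 16.8 ± 4.43 CPM in APP/E3 HFD and 23.1 ± 10.1 CPM in APP/E3 ND females (SD, n = 7, 7, 8 and 7). Itgax showed the same order of genotypes, at 3.71 ± 1.11, 3.43 ± 1.20, 1.48 ± 0.33 and 1.22 ± 0.37 CPM in those 4 groups. Serpina3m averaged 4.50 CPM in APP/E4 HFD and 4.68 CPM in APP/E4 ND females. Cst7 stood highest with both factors, at 8.87 ± 3.49 CPM in APP/E4 HFD, 5.92 ± 1.43 CPM in APP/E4 ND, 2.87 ± 1.28 CPM in APP/E3 HFD and 2.74 ± 1.54 CPM in APP/E3 ND females, but its diet difference within APP/E4 was 0.59 on the log2 scale and did not pass (edgeR adjusted p 0.685). Over the plaque-associated list the median log2 difference was 0.39 for both factors together, 0.38 for APP/E4 against APP/E3 on HFD, 0.24 for APP/E4 against APP/E3 on ND, 0.14 for HFD against ND in APP/E4 and 0.01 for HFD against ND in APP/E3 females. The homeostatic list gave 0.31, 0.28, 0.07, 0.24 and 0.02 in the same 5 comparisons. Over all genes tested the same 5 medians were -0.0004, 0.002, -0.01, 0.005 and -0.004.

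**Figure D4:**
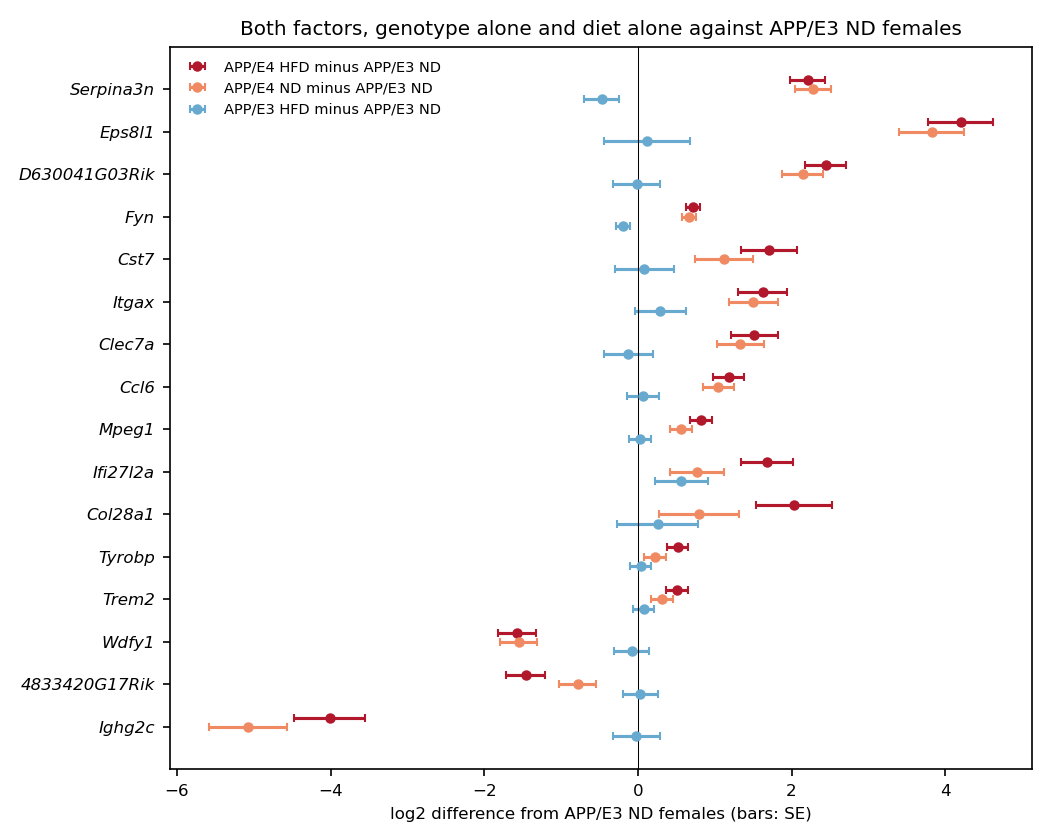
Rows are genes and the horizontal axis is the log2 difference from APP/E3 ND females, with bars of 1 SE. Red points carry both factors (APP/E4 HFD), orange points APOE4 alone (APP/E4 ND) and blue points the diet alone (APP/E3 HFD). For Serpina3n, Fyn and Wdfy1 red and orange lie close together, and blue lies at -0.47, -0.20 and -0.08.

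Whether the combination departed from the sum of its parts was tested as the interaction of genotype and diet in females on the log2 scale. No gene passed (0%, 0 of 15195 in edgeR, 0 higher and 0 lower), with 922 genes at an unadjusted p under 0.05, a smallest adjusted p of 0.802 and 0 calls by DESeq2 and by limma voom. The median SE of an interaction was 0.16 on the log2 scale against 0.11 for the combined difference, so small departures were hard to detect. The 5 smallest p among genes of at least 1 CPM belonged to Rn18s, 4931414P19Rik, Fam49a, Tmco6 and Sema6c. Apart from Rn18s, the combined difference of these genes lay between -0.06 and 0.05. Fam49a, a regulator of actin dynamics, is an example: it averaged 263 ± 22.6 CPM in APP/E4 HFD, 306 ± 35.7 CPM in APP/E4 ND, 314 ± 24.97 CPM in APP/E3 HFD and 271 ± 17.8 CPM in APP/E3 ND females, an interaction of -0.43 (edgeR adjusted p 0.802). Tyrobp and Trem2 gave interactions of 0.26 and 0.12, neither past the threshold.

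The same combination in males gave 92 called genes (0.605%), 45 higher (0.296%) and 47 lower (0.309%), in 5 APP/E4 HFD and 6 APP/E3 ND males that share no library with the females. Of the 77 genes that rose in females 73 were also higher in APP/E4 HFD males, and of the 77 that fell 74 were also lower. The share of all genes tested with the same direction in both sexes was not counted, so these counts are a description. The median log2 difference of the 77 higher genes was 0.52 in females and 0.27 in males, and that of the 77 lower genes was -0.40 in females and -0.22 in males, the female values being those the genes were chosen on. Of the 154 genes, 26 were called in males too, all in the same direction. Serpina3n differed by 2.21 in females and 2.06 in males, Fyn by 0.72 in females and 0.73 in males, Itgax by 1.62 in females and 1.48 in males, and Cst7 by 1.71 in females and 1.78 in males, all on the log2 scale. The plaque-associated list had a median of 0.14 in males with 24 of 27 genes higher, and the homeostatic list a median of 0.05 with 13 of 20 higher. The phagocyte, TREM2 chain and complement lists had male medians of 0.10, 0.07 and 0.01, below their female medians. The interferon list was similar in both sexes, at 0.38 in females and 0.36 in males. Antigen presentation (0.11 and 0.26) and reactive astrocyte genes (0.03 and 0.34) had the larger median in males. Tyrobp gave 0.52 in females and 0.09 in males, and Trem2 0.51 in females and 0.14 in males. APP/E4 HFD male 3 was the highest of its group in Itgax (5.47 CPM), Cst7 (10.5 CPM), Tyrobp (34.4 CPM) and Trem2 (26.3 CPM). The other APP/E4 HFD males lay between 0.366 and 2.98 CPM in Itgax and between 1.28 and 4.78 CPM in Cst7. They lay between 13.4 and 18.7 CPM in Tyrobp and between 13.5 and 19.0 CPM in Trem2. The male difference was not refitted with single male libraries left out.

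The difference between the sexes was tested directly, and 1 gene passed (0.00658%), lower in females (0.00658%), with none higher (0%) and 591 genes at an unadjusted p under 0.05. It was Hccs, the X-linked holocytochrome c synthase that attaches haem to cytochrome c. In females Hccs lay between 23.8 and 35.1 CPM with both factors and between 24.2 and 32.0 CPM with neither, a log2 difference of 0.08 ± 0.08. In males it lay between 50.9 and 63.3 CPM with both factors and between 22.6 and 29.9 CPM with neither, a log2 difference of 1.09. The female minus male difference was -1.01 ± 0.12 (edgeR adjusted p 3.86e-07). APP/E4 ND males were as high, between 53.1 and 64.9 CPM, and APP/E3 HFD males lay between 25.8 and 30.3 CPM, so the male values split by genotype. The next smallest p belonged to D2Wsu81e, Stoml3, Dync1li1 and Umodl1, none of which passed. Of all 52 libraries APP/E3 ND male 3 was highest in Stoml3 and Umodl1, at 99.8 and 72.7 CPM. It was also highest in the olfactory marker Omp, at 278 CPM. The part of olfactory tissue in these differences was not tested. No gene of the microglial lists passed this test, so the larger medians of these lists in females are a description.

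**Figure D5:**
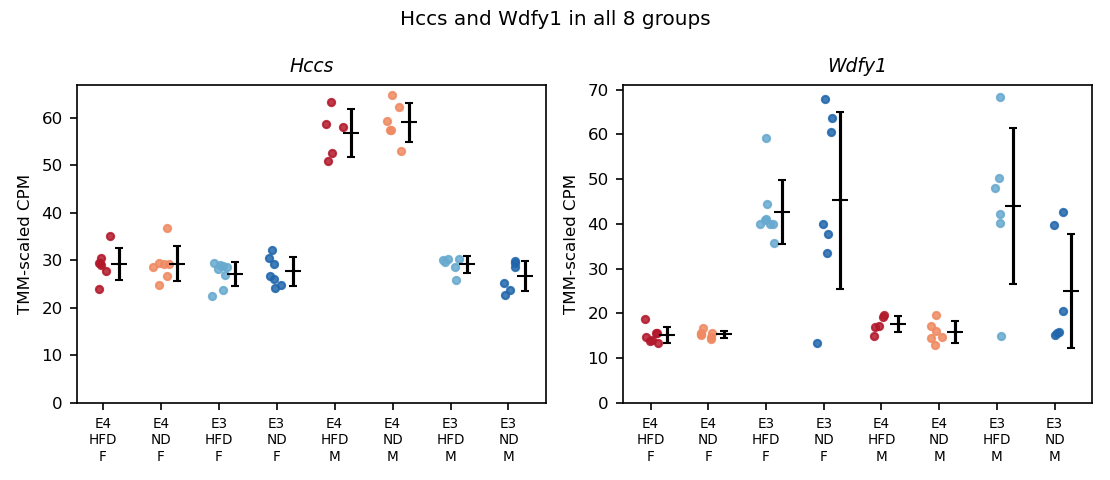
Panels show Hccs and Wdfy1 as TMM-scaled CPM on a linear axis from 0 in all 8 groups, with points for libraries and bars for mean and SD. Hccs is at 50.9 CPM or more in both groups of APP/E4 males and at 36.7 CPM or less in the other groups. Wdfy1 is at 19.6 CPM or less in all 25 APP/E4 libraries.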

How the data were processed

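RNA of frontal cortex was sequenced in 52 libraries, and the groups came from the genotype, diet and gender given in the labels. Replicate numbers follow the order of deposit and pair nothing. P-values of the main fit rest on a spread within groups estimated from all 52 libraries, males included, not from the 14 libraries alone. The authors deposited raw read counts per gene in 1 table of 15692 genes, with 0 columns of other samples. Per the submitters' processing notes, Subread, featureCounts, limma, edgeR 3.14.0 and genome build mm9 were used. The sources used here give neither the annotation, the strand setting nor the treatment of reads with several matches, so paralogs, overlapping genes and antisense genes are uncertain. The authors' deposited fold and p columns were not used.

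Spreadsheet dates were turned back into 24 symbols through their gene IDs, of which 15448 were found in RefSeq (GRCm38.p6, used for names, chromosomes and promoters only). The counts were tested with edgeR 4.0.16 in R 4.3.3. The function filterByExpr removed 497 genes and left 15195, TMM scaled the libraries, a robust quasi-likelihood model was fitted to all 52 libraries with 1 mean for each of 8 groups, and p-values were adjusted by Benjamini-Hochberg over all genes within each contrast. The script was tested on simulated data. DESeq2 1.42.0, limma 3.58.1 (voom), RLE scaling, no filter, the 14 libraries alone, the 29 females alone, a term for Csl, leaving out the Csl-low females and leaving out each library in turn were alternatives.

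Members and gene lists were chosen with earlier results of these data known. The genes named are the 10 largest changes in each direction at 1 CPM or more, up to 4 called members of each list (or the member with the smallest p), Apoe, App, Prnp, Trem2, Tyrobp and Serpina3n, and for the interaction and the sex difference the 5 smallest p. Other list members named with a value, such as Gfap, P2ry12 and Spp1, were added for their known roles after their values were seen. Some genes that this rule names are not reported here. Floors cover counting error only.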

Additional observations from a re-analysis of the deposited data

Results flagged for a closer look

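In the 2 groups of 7 females, 1 library stood far from the rest of its group in 20 of 133 sets, each 1 named gene in 1 group. The measure was the gap to its nearest neighbour against the range of the group (Dixon's test). Chance alone marks about 1 in 20 groups of normally distributed values. Many of these genes were named for their values in the same libraries, so the 20 sets cannot be read against that rate. APP/E4 HFD female 4 accounted for 8 of them: it was high in Omp (123 CPM), Stoml3 (20.9 CPM), Umodl1 (3.40 CPM), Col28a1 (11.1 CPM), Cdkn1a (74.8 CPM) and Fyn (179.5 CPM) and low in Sst (66.0 CPM) and Cyp46a1 (151 CPM). APP/E4 HFD female 5 was high in Ttr at 651 CPM, APP/E4 HFD female 2 was high in Tac1 at 108.0 CPM, and APP/E4 HFD female 6 was low in Fam49a at 217 CPM. APP/E3 ND female 1 was high in Rn18s (45970 CPM), Rpph1 (21.2 CPM), Rn7sk (82.7 CPM), Sst (177 CPM) and D2Wsu81e (24.4 CPM). APP/E3 ND female 5 was high in Hba-a1 (135 CPM) and Fyn (110.1 CPM), APP/E3 ND female 4 in Ighg2c (5.58 CPM) and APP/E3 ND female 3 in Nptxr (30.5 CPM).

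The combined difference of Hccs was unlike in the sexes by the test of the difference itself, -1.01 on the log2 scale for females minus males (SE 0.12, edgeR adjusted p 3.86e-07). It was higher in all 5 APP/E4 HFD males than in all 6 APP/E3 ND males, and the female groups overlapped.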

How the results depend on the processing

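The count of called genes for the combined difference in females, 154, stayed within 1.5 times under RLE scaling (159), with no filter (152), with limma voom (142) and without the Csl-low females (110). It moved to 244 with DESeq2, 232 with a term for Csl, 92 with the 29 females alone and 37 with the 14 libraries alone, of which 153, 154, 79 and 34 genes were shared with the 154. Leaving out 1 library gave 88 to 283: 96, 97, 283 and 99 without APP/E3 ND female 1, 2, 4 or 7 and 88 without APP/E4 HFD female 4. Without APP/E4 HFD females 4 and 5 together it was 63, and without APP/E3 ND females 1 and 4 together 225; both alternatives were chosen after seeing the data. The plaque-associated list held 4 calls with the 14 libraries alone and 10 with DESeq2 or a term for Csl, against 7.

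APP/E4 against APP/E3 on HFD (92) gave 142 with DESeq2, 154 with a term for Csl, 55 with the 29 females, 41 without the Csl-low females, 51 without APP/E4 HFD females 4 and 5, and 59 to 116 with 1 library left out (59 without APP/E4 HFD female 5). APP/E4 against APP/E3 on ND (146) gave 252 with DESeq2, 224 with a term for Csl, 396 without APP/E3 ND females 1 and 4, and 49 to 492 with 1 library left out, with 61, 49, 492 and 53 without APP/E3 ND female 1, 3, 4 or 6. HFD against ND in APP/E3 (4) gave 8 with DESeq2, 0 with limma voom, with the 29 females, with a term for Csl and without APP/E4 HFD females 4 and 5, and 0 to 8 with 1 library left out: 0 without APP/E3 ND female 1 or APP/E4 HFD female 3, 5, 6 or 7, 7 without APP/E3 ND female 3 or 6 and 8 without APP/E3 ND female 7. The diet in APP/E4 and the interaction gave 0 under every alternative that could be run, and the sex difference gave 1 except with DESeq2 (7).

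For the 39 named called genes, 735 of 931 values kept direction and call, 193 kept direction only and 3 reversed: Rn18s (0.0043), Rpph1 (0.22) and Rn7sk (0.22) without APP/E3 ND females 1 and 4. Beside those given with the results, the calls of Wnt9b, Rpph1, Nptxr, Tlr7, Itgb2, C3ar1, Trim30a, Jun, Sqle and D2Wsu81e were lost without the Csl-low females (edgeR adjusted p 0.0513 to 0.158). With the 14 libraries alone, Serpina3n, Itgax, Clec7a, Ccl6, Mpeg1 and Fcrls kept their calls, and Fcgr2b and Ifi27l2a lost them (edgeR adjusted p 0.0675 and 0.0766). Serpina3m, Eps8l1, Ptprh, D630041G03Rik, Fyn, Med13l, Gm20186, Ighg2c, Wdfy1 and 4833420G17Rik kept theirs too. Gpr34, Tlr7, Itgb2, C3ar1, Trim30a, Jun, Sqle and Cyp46a1 lost theirs (edgeR adjusted p 0.084 to 0.175). So did Kmt2a, Btaf1, Rn18s, Rn7sk, Nptxr, Rtl1 and D2Wsu81e (edgeR adjusted p 0.0715 to 0.331). Rpph1, Wnt9b and Col28a1 had no value in that fit. For named genes not called, 489 of 527 values kept direction and stayed uncalled, 34 kept direction and became called, and 4 reversed. With 1 library left out Omp ranged from -0.90 (without APP/E4 HFD female 4) to 3.12 and Prnp from -0.105 to 0.0034 (without APP/E4 HFD female 4). Omp was -0.76 without APP/E4 HFD females 4 and 5 and Apoe -0.00805 without the Csl-low females. The cause of these shifts was not tested. No paired analysis was possible because replicate numbers come from the order of deposit and the titles carry none.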
